A study of Mus musculus with 91 samples.

Results

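The genes described here encode the mitochondrial respiratory chain and ATP synthase, measured cell by cell in bone marrow stroma of C57BL/6 mice. They were taken by symbol: mitochondrial messenger RNAs (mt-), complex I genes (Nduf), Sdha to Sdhd, Uqcr genes, Cox4 to Cox8 genes, Cyc1, Cycs and Atp5 genes, each with at least 10 counts over the 91 cells. Of 16580 genes in the table, 103 symbols matched and 102 passed this minimum, 11 encoded in mitochondrial DNA and 91 in the nucleus. The row just outside, the pseudogene Atp5c1-ps, had 6 counts, and those just inside, the pseudogene Ndufab1-ps and the gene Ndufa4l2, had 270 and 1276 counts. The mitochondrial genes mt-Nd4l and mt-Atp8 were not analysed here.

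The cells came from crushed bones, were index-sorted into wells and sequenced 1 library each with Smart-seq2, a full-length cDNA method primed on polyadenylated RNA. Every cell was sorted as CD45-Ter119-CD41-CD71- (lacking blood-lineage proteins), positive for a vibrant dye used to leave out debris, and VCAM1+, an adhesion protein of marrow stroma. There were 39 VCAM1+CD61+ cells (CD61+ below, plates of 17 and 22 cells), 40 VCAM1+CD61- cells (CD61- below, plates of 24 and 16 cells) and 9 VCAM1+ cells for which CD61 (integrin beta 3) was not used. Another 3 cells carry a title at odds with their gate label and were kept out of every comparison between gates. No label names an animal, an age or a treatment, so each gate counts as 1 sample and no test between gates was run. Plates hold 1 gate each, and the effects of plate and of gate cannot be told apart.

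The respiratory chain passes electrons from NADH (complex I) and succinate (complex II) through complex III and cytochrome c to oxygen at complex IV, and ATP synthase (complex V) uses the proton gradient this builds. Some core membrane subunits of complexes I, III, IV and V are encoded in mitochondrial DNA and transcribed inside the organelle as long polycistronic RNAs. The remaining subunits, and all of complex II, are encoded in the nucleus. Marrow stroma holds CXCL12-abundant reticular (CAR) cells and osteoblast-lineage cells.

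Total counts per cell ran from 507713 to 6702475, and the deposited number of genes per cell from 1185 to 6565 in the 88 cells with a gate. The gates differed in stromal markers. The 12 CAR markers summed to 14136 and 32156 CPM in CD61+ and CD61- cells, where CPM is the summed count scaled to a total of 1000000 counts, and 9 of the 12 were lower in both CD61+ plates. The 10 osteolineage markers summed to 82536 and 19906 CPM, and 8 were higher in both CD61+ plates. Markers of other cell types were at 0 or near it in the median cell of both gates, except those of fibroblasts. Endothelial markers summed to 1159 and 3.93 against 11.5 and 290.3 CPM in the CD61+ plates against the CD61- plates, blood markers to 11.4 and 2.66 against 187 and 0.102 CPM (Tyrobp at 0 in CD61+ cells), erythroid markers to 181 and 583 against 194 and 45.2 CPM and mural markers to 15.4 and 114 against 23.4 and 8.51 CPM. Megakaryocyte markers summed to 1.08 and 4.49 against 0.0759 and 1.15 CPM. The plates overlapped for each of these 5 sums. Fibroblast markers summed to 1233 and 2566 against 277 and 176 CPM and were higher in both CD61+ plates. The part of these lists in the results below was not tested, and fewer cells of a type and less RNA per cell cannot be told apart in a summed value.

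Promoters are shown first because the 91 nuclear encoded genes lie scattered over the chromosomes, 3 of them on the X, each behind a start of its own. RefSeq windows on GRCm38.p6, from 250 bases before to 50 after the start, matched 72 of the 91 genes by symbol, 5 of them with several windows, and a match in any window was counted. They were searched on both strands for CGCATGCG, a core bound by NRF1, for CCGGAAG, a site of the ETS family to which GABPA belongs, and for AANATGGCG, a form bound by YY1. These factors are known regulators of respiratory chain genes. The NRF1 letters stood in 12 of 72 genes (16.7%), beside 2.07% of all 27025 genes with windows. The ETS letters stood in 19 (26.4%), beside 9.93%, and the YY1 letters in 11 (15.3%), beside 2.76%. At least 1 of the 3 was present in 35 of the 72 genes (48.6%), beside 13.6% of all genes. By direction it was 13 of 24 genes higher in both CD61+ plates, 7 of 10 lower in both and 15 of 38 whose plates overlapped. Whether these small groups differ was not tested. A match is a run of letters, not a measured site. Below are the 170 bases before the start, 5′ to 3′ on the strand of the gene with matches in capitals, for a gene with all 3 motifs before 1 of its starts (Atp5j), for 3 genes higher in both CD61+ plates (Cycs, Cox6a1, Atp5e) and for the complex I gene with the widest gap the other way (Ndufs7).
Atp5j, chr16:84834977-84835146, - strand: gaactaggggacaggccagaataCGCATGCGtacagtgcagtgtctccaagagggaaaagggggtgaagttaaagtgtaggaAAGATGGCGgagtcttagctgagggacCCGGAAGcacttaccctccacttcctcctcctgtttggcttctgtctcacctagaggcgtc
Cycs, chr6:50566570-50566739, - strand: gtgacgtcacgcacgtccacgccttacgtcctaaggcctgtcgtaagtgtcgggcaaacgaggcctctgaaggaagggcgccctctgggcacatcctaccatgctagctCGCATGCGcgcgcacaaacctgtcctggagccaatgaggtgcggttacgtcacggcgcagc
Cox6a1, chr5:115348959-115349128, - strand: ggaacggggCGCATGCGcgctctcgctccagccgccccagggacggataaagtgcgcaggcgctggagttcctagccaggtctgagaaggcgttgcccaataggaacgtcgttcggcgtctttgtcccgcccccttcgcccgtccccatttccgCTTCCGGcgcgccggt
Atp5e, chr2:174464102-174464271, - strand: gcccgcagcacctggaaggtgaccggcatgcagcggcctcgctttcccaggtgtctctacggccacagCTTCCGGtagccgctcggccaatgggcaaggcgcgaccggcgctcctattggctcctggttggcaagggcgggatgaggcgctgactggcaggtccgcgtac
Ndufs7, chr10:80249279-80249448, + strand: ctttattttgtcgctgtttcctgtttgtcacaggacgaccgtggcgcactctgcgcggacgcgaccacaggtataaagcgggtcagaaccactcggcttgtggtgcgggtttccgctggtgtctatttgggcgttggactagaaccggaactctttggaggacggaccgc

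In Atp5j, coupling factor 6 of the ATP synthase stalk, the NRF1, YY1 and ETS letters began 147, 88 and 61 bases before the start shown, and a second window of this gene, for another start, holds none of the 3. In Cycs, cytochrome c, the NRF1 letters began 61 bases before it, and in Cox6a1 of complex IV the NRF1 and ETS letters began 161 and 16 bases before it. In Atp5e the ETS letters began 102 bases before the start. The printed stretch of Ndufs7 holds none of the 3, and YY1 letters began 24 bases after its start.

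Both sets of genes took a larger share of the counts in the CD61+ gate. The 11 mitochondrially encoded genes summed to 13824 and 16873 CPM in the CD61+ plates and 12668 and 8977 CPM in the CD61- plates. Both CD61+ plates lay above both CD61- plates, but plate pairs differed from 1.09-fold to 1.88-fold. By gate the sums were 15321 and 11096 CPM, a 1.38-fold difference (log2 0.47). Without CD61- plate 1 the log2 difference was 0.77, and without CD61- plate 2 it was 0.27.

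The 91 nuclear encoded genes summed to 34216 and 33755 CPM in the CD61+ plates and 27617 and 30092 CPM in the CD61- plates. By summed counts these plates did not overlap either, and plate pairs differed from 1.12-fold to 1.24-fold. By the mean CPM of cells they did overlap, at 35615 and 33669.5 CPM against 27365 and 34184.5 CPM. By gate the sums were 33990 and 28671 CPM (log2 0.25). In the 9 VCAM1+ cells the sums were 21251 CPM for mitochondrially and 28433 CPM for nuclear encoded genes. There 1 cell gave 31.3% of the mitochondrially encoded counts, and the median cell had 14838 CPM, beside 15238 CPM in CD61+ cells. The titles of these 9 cells do not all share a prefix. Exact Poisson 95% intervals of the mitochondrially encoded sums were 15293 to 15348 CPM and 11074 to 11117 CPM. They cover counting error only, and reads without molecular identifiers are not independent molecules.

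Cells of 1 gate varied widely in the mitochondrially encoded sum. It ran from 3898 through a median of 15238 to 57312 CPM in CD61+ cells and from 2081 through 10634 to 39114 CPM in CD61- cells, so the gates overlapped over most of their range. The nuclear encoded sum ran from 17193 through 34249 to 52418 CPM in CD61+ cells and from 13412 through 29042 to 65423 CPM in CD61- cells. The coefficient of variation between cells (SD over mean) of the mitochondrially encoded sum was 0.659, 0.642 and 0.659 in CD61+, CD61- and VCAM1+ cells. That of the nuclear encoded sum was 0.216, 0.355 and 0.555. Over the 88 cells the sums were weakly related to each other, with Spearman's rho 0.22 and Pearson's r 0.17 on log2(CPM + 1). Within the plates rho was -0.01, 0.33, 0.36 and 0.19, in the order CD61+ plates 1 and 2, CD61- plates 1 and 2, which is kept below.

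**Figure D1:**
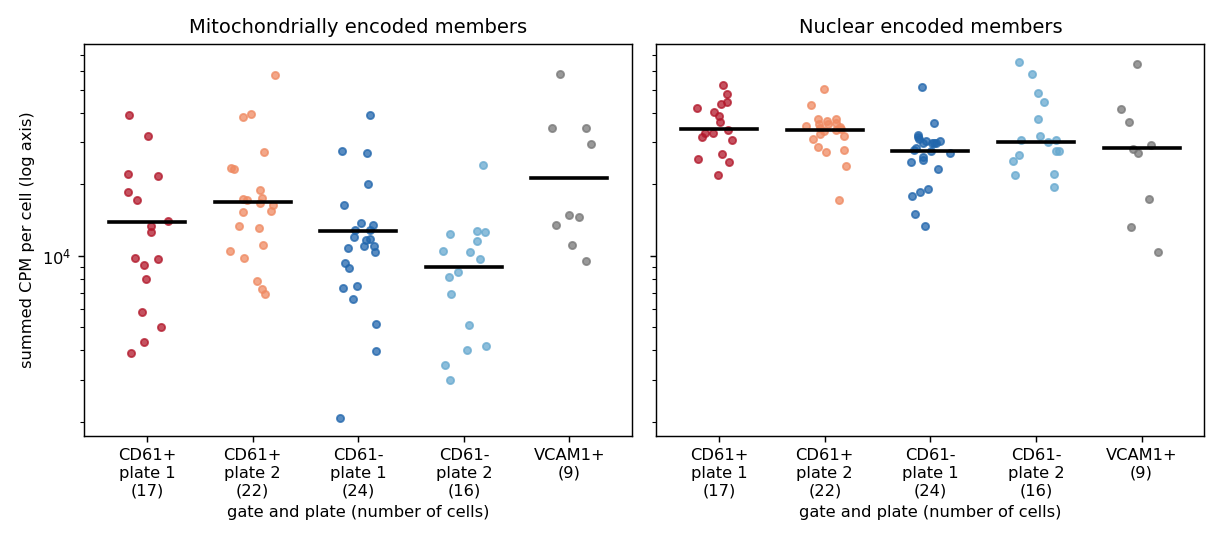
Summed CPM per cell (log axis) of the 11 mitochondrially encoded (left) and 91 nuclear encoded genes (right) by gate and plate, 1 point per cell, with black lines at the pooled value of each plate or gate. The lines of the CD61+ plates, at 13824 and 16873 CPM on the left and 34216 and 33755 CPM on the right, lie above those of the CD61- plates.

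A few genes made up most of the mitochondrially encoded counts. Over the 88 cells mt-Co3, a core subunit of complex IV, gave 42.7% of them, mt-Co2, which receives electrons from cytochrome c, 15.2%, mt-Cytb, the core of complex III, 13.9% and mt-Co1, the catalytic subunit of complex IV, 9.83%. Per kilobase of transcript, levels ran from 125 CPM for mt-Nd5, a membrane subunit of complex I, to 7854 CPM for mt-Co3, with a median of 692 CPM. The nuclear encoded genes had a median of 204 CPM per kilobase.

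Both CD61+ plates lay above both CD61- plates for 7 of the 11 mitochondrially encoded genes and below them for 0, beside 20.0% and 17.8% of all 14063 genes tested. Without CD61+ plate 1, 11 of 11 were higher, beside 33.4% of all genes, and without CD61+ plate 2, 1 was lower, beside 32.5%. In single cells mt-Co3 ran from 407 through a median of 6023 to 17549 CPM in CD61+ cells and from 2.54 through 4092 to 18456 CPM in CD61- cells. Its plate sums were 5851 and 7012 CPM in the CD61+ plates and 5161 and 3867 CPM in the CD61- plates, 1.39-fold by gate. The cells of the gates thus overlapped while the plates did not. For mt-Co2 the plates stood at 2218 and 2814 CPM against 1841 and 1455 CPM, for mt-Cytb at 1880 and 2341 CPM against 1763 and 1540 CPM and for mt-Atp6, the proton channel subunit of ATP synthase, at 1064 and 1192 CPM against 971 and 415 CPM. Of the complex I genes, mt-Nd1 stood at 643 and 738 CPM against 574 and 335 CPM, mt-Nd2 at 138 and 203 CPM against 126 and 86.4 CPM and mt-Nd4 at 482 and 542 CPM against 470.1 and 225 CPM. CD61- plate 2 was the lowest plate for each of these 7 genes.

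The other 4 mitochondrially encoded genes had overlapping plates. For mt-Nd6, the only one of the 11 on the other strand of the mitochondrial genome (GRCm38 chromosome M, 13552 to 14070), they stood at 40.6 and 159 CPM against 147 and 47.3 CPM. Its log2 difference by gate was -0.08 from summed counts and 0.37 from the mean CPM of cells. The log2 differences of mt-Nd3, mt-Nd5 and mt-Co1 were 0.23, 0.12 and 0.35. Summed by complex, the 3 mitochondrially encoded complex IV genes had 9330 and 11395 CPM against 8322 and 6148 CPM. The 6 of complex I had 1550 and 1944 CPM against 1613 and 874 CPM, and these plates overlapped.

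**Figure D2:**
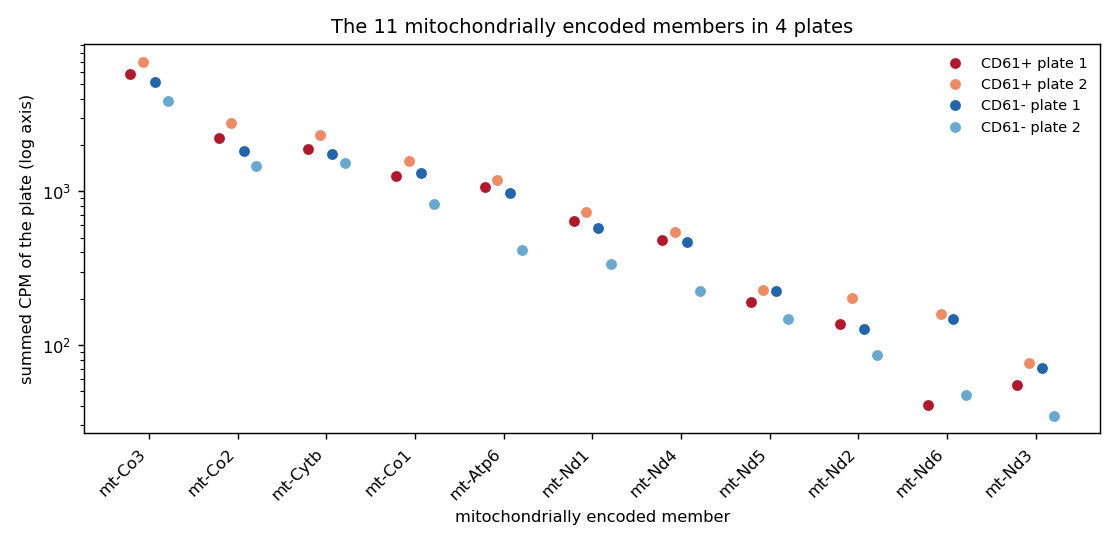
CPM of the pooled counts of each plate (log axis) for the 11 mitochondrially encoded genes, 1 point per plate and gene. CD61- plate 2 is the lowest for 10 genes, the exception being mt-Nd6, for which CD61+ plate 1 stands at 40.6 CPM and CD61- plate 2 at 47.3 CPM.

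Of the 91 nuclear encoded genes, 90 passed the filter on low counts. Of these, 28 (31.1%) were higher in both CD61+ plates and 13 (14.4%) were lower, beside 20.0% and 17.8% of all genes tested. Their median log2 difference was 0.14, beside 0.0084 over all genes tested. For CD61+ plates 1 and 2 over CD61- plate 1 the medians were 0.24 and 0.24, beside -0.04 and -0.06 over all genes tested. Over CD61- plate 2 they were 0.13 and 0.03, beside 0.13 and 0.14. The median thus exceeded that of all genes clearly only against CD61- plate 1. Restricted to genes seen in 50% of cells or more, 26 of 77 nuclear encoded genes were higher and 11 lower, beside 19% and 22.1% of the 4154 such genes. Fewer plates separate more easily: without CD61- plate 2, 51 of 89 were higher and 20 lower, beside 32.5% and 37.5% of all genes. Without CD61- plate 1, 40 of 90 were higher and 31 lower, beside 41.8% and 31.7%. Without CD61+ plate 1, 40 were higher and 20 lower, beside 33.4% and 31.5%.

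In complex IV, 8 of 13 nuclear encoded genes (61.5%) were higher and 1 (7.69%) lower, beside 20.0% and 17.8% of all genes tested. Their median log2 difference was 0.46, and 7 or 8 were higher under TMM scaling, DESeq2 size factors and the mean CPM of cells. They summed to 9533 and 8881 CPM in the CD61+ plates and 6544 and 6847 CPM in the CD61- plates. Cox4i1, which binds the catalytic core (GRCm38 chromosome 8, 120668222 to 120674207), ran from 0 through a median of 1285 to 5063 CPM in CD61+ cells and from 0 through 688 to 2633 CPM in CD61- cells. Its plates stood at 1567 and 1381 CPM against 934 and 772 CPM, 1.71-fold by gate. Cox6c, a small membrane subunit, had the most CPM per kilobase of the nuclear encoded genes (2899), and its plates stood at 1760 and 1691 CPM against 1292 and 1036 CPM. Cox6a1, whose promoter is shown above, stood at 1249 and 1311 CPM against 743 and 928 CPM, and Cox7c, another small membrane subunit, at 749.7 and 762 CPM against 498 and 521 CPM. The plates of the same gate lay close together for Cox7c, and the gates were 1.49-fold apart. The housekeeping forms Cox6b1 (941 and 791 CPM against 671 and 625 CPM), Cox7b (251 and 246 CPM against 95.6 and 175 CPM) and Cox8a (1329 and 1094 CPM against 836 and 944 CPM) were also higher in both CD61+ plates, while the plates of Cox7a2, another such form, overlapped (376 and 354 CPM against 279 and 459 CPM).

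Cox5a and Ndufa4 depended on how cells were weighted. Cox5a, a matrix-side subunit of complex IV, had 424 and 404 CPM in the CD61+ plates and 132 and 309 CPM in the CD61- plates, a log2 difference of 1.00 by gate. It had a count in 30 of 39 CD61+ cells and 17 of 40 CD61- cells. A single CD61- cell reached 5782 CPM, and by the mean CPM of cells the plates overlapped, with a log2 difference of 0.35. Ndufa4, named for complex I and now assigned to complex IV, was the gene of this complex lower in both CD61+ plates (483 and 572 CPM against 594 and 669 CPM). Its median cell was nonetheless higher in CD61+ cells, at 558 against 385 CPM. Its plates overlapped by the mean CPM of cells and with DESeq2 size factors.

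In complex V, 7 of 16 nuclear encoded genes (43.8%) were higher and 1 (6.25%) lower, beside 20.0% and 17.8% of all genes tested. Their median log2 difference was 0.26. They summed to 8252 and 8242 CPM in the CD61+ plates and 6284 and 6445 CPM in the CD61- plates. Atp5mpl, a small membrane subunit, ran from 0 through a median of 593 to 2862 CPM in CD61+ cells and from 0 through 84.5 to 2065 CPM in CD61- cells. Its plates stood at 780.1 and 786 CPM against 368 and 347 CPM, 2.18-fold by gate. Atp5e, the epsilon subunit of the central stalk, had 756 and 1021 CPM in the CD61+ plates and 409 and 449 CPM in the CD61- plates and a count in 37 of 39 CD61+ and 26 of 40 CD61- cells. Atp5h, of the peripheral stalk, had 1035 and 828 CPM against 821 and 519 CPM. Atp5l, a membrane subunit and the most counted of the complex, had 1006 and 857 CPM against 799 and 895 CPM, and Atp5j had 653 and 867 CPM against 681 and 589.6 CPM, so both overlapped. The catalytic beta subunit Atp5b, named after its values were seen, had 851 and 579 CPM against 424 and 556 CPM, and its plates overlapped under TMM scaling and DESeq2 size factors. The gene lower in both CD61+ plates, Atp5md, had 161 and 193 CPM against 313 and 210.2 CPM, and its plates overlapped by the mean CPM of cells.

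**Figure D3:**
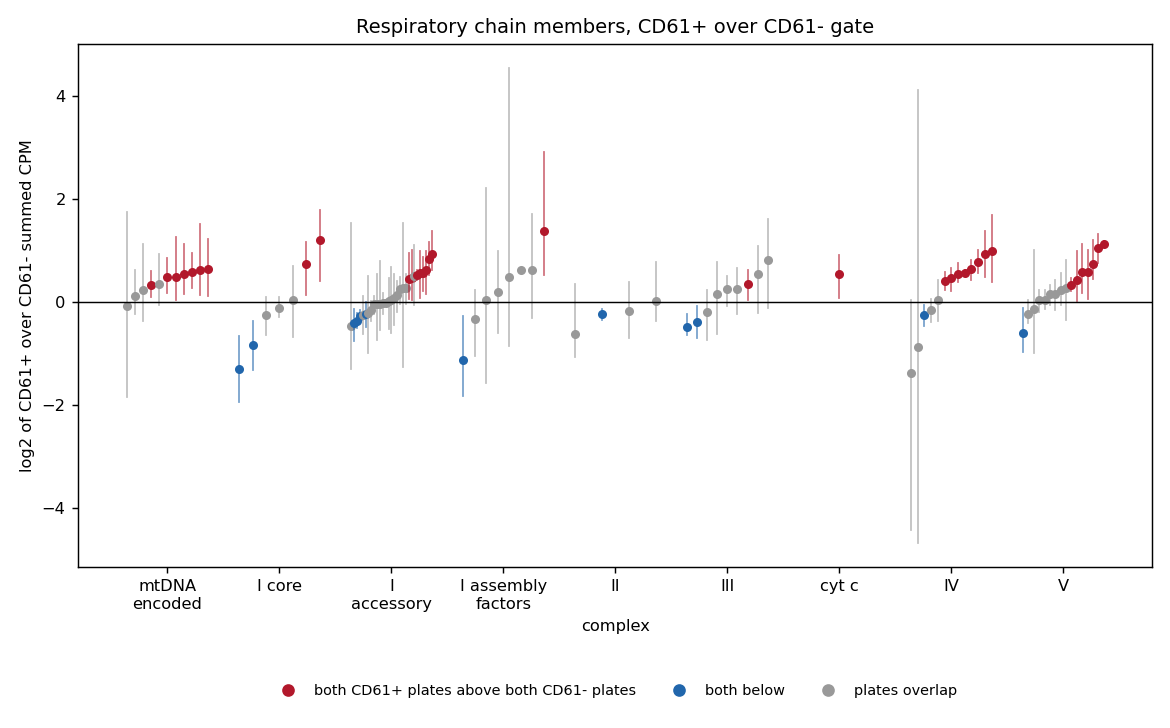
Log2 of CD61+ over CD61- CPM for each gene that passed the filter on low counts, grouped by complex. Points give the gates, vertical lines the lowest to highest of the 4 plate pairs where no plate is at 0, and red, blue and grey mark genes higher in both CD61+ plates, lower in both, and overlapping: 8 of 13 complex IV and 7 of 16 complex V points are red. Of all genes tested, 20.0% were higher.

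Genes of complex I went both ways. Of the 36 core and accessory genes, 27.8% were higher and 16.7% lower, beside 20.0% and 17.8% of all genes tested. Among 7 nuclear encoded core subunits, 2 lay above and 2 below in both CD61+ plates, with a median log2 difference of -0.12. Ndufs7, which carries an iron-sulfur cluster next to the quinone site, ran from 0 through a median of 23.5 to 1266 CPM in CD61+ cells and from 0 through 262 to 3653 CPM in CD61- cells. Its plates stood at 205 and 164 CPM against 323 and 633 CPM, 2.46-fold lower in the CD61+ gate. Ndufv1, which binds flavin and NADH and was named after its values were seen, had 142 and 74.7 CPM against 40.8 and 56.3 CPM, and Ndufs1, which holds iron-sulfur clusters, had 109 and 57.0 CPM against 51.7 and 48.3 CPM. Ndufv2, the partner of Ndufv1 and also named after its values were seen, overlapped (296 and 277 CPM against 339 and 277 CPM), and it was lower in both CD61+ plates under TMM scaling, DESeq2 size factors and the mean CPM of cells.

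Of 29 accessory subunits of complex I, 8 (27.6%) were higher and 4 (13.8%) lower, beside 20.0% and 17.8% of all genes tested. Their median log2 difference was 0.05. By the mean CPM of cells 5 were higher and 3 lower, beside 21.0% and 15.5% of all genes tested. Ndufb11, a membrane-arm subunit encoded on the X chromosome, had 374 and 319 CPM in the CD61+ plates and 209 and 143 CPM in the CD61- plates, and 1 cell gave 24.0% of its CD61+ counts. Ndufb9, also of the membrane arm, had 397 and 451 CPM against 563 and 521 CPM, and Ndufa9, near the junction of the arms, had 105 and 120.1 CPM against 134 and 139.9 CPM. The other lower genes, Ndufb10 (372 and 268 CPM against 408 and 453 CPM) and Ndufs6 (459 and 567 CPM against 569 and 645 CPM), were named after their values were seen, and the plates of Ndufs6 overlapped under TMM scaling, DESeq2 size factors and the mean CPM of cells. Core and accessory genes together summed to 11112 and 11598 CPM in the CD61+ plates and 10277 and 11890 CPM in the CD61- plates, which overlapped. Among the most counted, Ndufa3 had 682 and 933 CPM against 667 and 465 CPM, and its plates overlapped by the mean CPM of cells. Ndufa7 (875 and 713 CPM against 596 and 975 CPM) and Ndufb8 (553 and 588 CPM against 574 and 574 CPM) overlapped.

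The 8 assembly factors of complex I that the symbol rule took in are low in these cells. Of them 1 was higher and 1 lower (12.5% each), beside 20.0% and 17.8% of all genes tested. Ndufaf2 had 53.4 and 80.9 CPM against 37.0 and 10.7 CPM, 2.60-fold by gate. The factor lower in both CD61+ plates, Ndufaf5, had a count in 10 of 88 cells. The plates of Ndufaf3, Ndufaf4, Ndufaf7 and Ndufaf8 overlapped, at log2 differences of -0.34, 0.61, 0.21 and 0.61.

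In complex II 0 of 4 genes were higher and 1 was lower, beside 20.0% and 17.8% of all genes tested. The 4 genes summed to 523 and 493 CPM in the CD61+ plates and 618 and 548 CPM in the CD61- plates. Sdhb, the iron-sulfur subunit, had 207 and 181 CPM against 229 and 228 CPM. The flavin subunit Sdha (124 and 121 CPM against 94.6 and 196 CPM) and the membrane anchor Sdhc (132 and 131 CPM against 169 and 77.2 CPM) overlapped. In complex III 1 of 9 genes (11.1%) was higher and 2 (22.2%) lower. Whether such small counts differ from the shares of all genes was not tested. Uqcr11, a small subunit, had 1058 and 1308 CPM against 852 and 1024 CPM, and its plates overlapped under TMM scaling and DESeq2 size factors. Uqcrb, which lies at the quinone site, overlapped (795 and 644 CPM against 556 and 676 CPM). Uqcr10, another small subunit, had 578 and 572 CPM against 887 and 680.3 CPM, while its median cell had 521 CPM in CD61+ and 421 CPM in CD61- cells. Uqcrc1, a core protein, had 53.7 and 77.0 CPM against 87.3 and 81.3 CPM and overlapped by the mean CPM of cells. Cycs had 163 and 102 CPM against 86.3 and 97.1 CPM and overlapped under TMM scaling and DESeq2 size factors, and 1 cell gave 30.4% of its CD61+ counts.

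Isoforms known from particular tissues or from low oxygen were counted in few cells. Cox4i2, known from lung and low oxygen, had a count in 13 of 88 cells, beside 81 cells for Cox4i1. Cox6b2, known from testis, had a count in 14 cells, beside 77 for Cox6b1. Ndufa4l2, a relative of Ndufa4 known to be induced by low oxygen, had a count in 4 cells, beside 82 for Ndufa4, and 1 cell gave 69.3% of its counts. Per kilobase of transcript the isoforms made up 2.88%, 9.51% and 0.751% of the CPM of their pairs over the 88 cells. The plates of Cox4i2 and Cox6b2 overlapped, and Ndufa4l2 was the nuclear encoded gene that did not pass the filter on low counts.

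Genes around the chain were taken from lists by function. Of 42 assembly factors outside the symbol rule, 7 lay above and 9 below in both CD61+ plates, near the shares of all genes tested, 20.0% and 17.8%, against which the counts of the smaller lists that follow should be read as well. Coa3, needed for complex IV, had 373 and 283 CPM against 131 and 223 CPM, and Uqcc2, needed for complex III, had 477 and 449 CPM against 352 and 183 CPM. Cox14, which acts with Coa3 in mt-Co1 synthesis, had 106 and 226 CPM against 308 and 229.6 CPM. Of 25 genes that express or copy mitochondrial DNA, 6 were higher and 2 lower. Slirp, which stabilises mitochondrial messenger RNA, overlapped (130.4 and 106 CPM against 105 and 114 CPM), and Ssbp1, which binds single-stranded mitochondrial DNA, had 66.0 and 80.1 CPM against 88.5 and 118 CPM. The other lower gene, named after its values were seen, was Tfam, which packages and transcribes mitochondrial DNA (12.5 and 9.61 CPM against 24.1 and 100.0 CPM).

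Of 7 transcriptional regulators that passed the filter, 3 were higher and 1 lower. Gabpa, which binds ETS letters, had 27.9 and 18.3 CPM against 11.7 and 0.716 CPM, its partner Gabpb1 (12.9 and 16.1 CPM against 0.36 and 6.87 CPM, named after its values were seen) and the coactivator Pprc1 were higher as well, and Yy1 had 10.1 and 4.91 CPM against 21.9 and 10.3 CPM. Nrf1, whose letters were searched as well and which was named after its values were seen, overlapped (9.43 and 23.8 CPM against 12.1 and 13.4 CPM). Hif1a, the oxygen-regulated factor, overlapped too (146 and 88.7 CPM against 90.6 and 86.3 CPM). Gabpb1 and Nrf1 each had a count in 18 of the 88 cells. Of 15 citric acid cycle genes 0 were higher and 1, the pyruvate dehydrogenase subunit Pdhb (58.4 and 78.5 CPM against 128 and 129 CPM, named after its values were seen), was lower, and malate dehydrogenase Mdh2 overlapped (229.7 and 168 CPM against 322 and 143 CPM). Of 8 carrier genes, the ATP synthase inhibitor counted among them, 2 were higher, Slc25a5 and the outer membrane channel Vdac1 (111 and 61.1 CPM against 38.7 and 40.8 CPM, named after its values were seen), and 1 was lower. The adenine nucleotide carriers lay on opposite sides, Slc25a5 at 575 and 482 CPM against 455 and 355 CPM and Slc25a4 at 220.1 and 208 CPM against 352 and 235 CPM, and the inhibitor Atpif1 overlapped (561 and 689 CPM against 434 and 614 CPM).

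From cell to cell, the mitochondrially encoded genes varied together more than the nuclear encoded ones did. Over 88 cells the 55 pairs of mitochondrially encoded genes had a median rho of 0.51, from 0.18 to 0.76 for mt-Co2 with mt-Co3. Within the plates the median was 0.54, 0.68, 0.39 and 0.19. The 3081 pairs of the 79 nuclear encoded genes counted in at least 50% of these cells had a median of 0.07, and the 869 pairs between the sets 0.04. Among the 9 nuclear encoded genes counted in at least 90% of cells, the 36 pairs had a median of 0.10. The highest nuclear encoded pair, Ndufb4 with Ndufb4c at 0.70, joins similar copies between which reads may be split. Next came Cox5a with Ndufa7 at 0.46. For mt-Nd6, encoded on the other strand, the median with the other 10 genes was 0.49, and 0.45, 0.68, 0.39 and -0.02 within the plates. Whether its counts came from RNA of that strand was not tested. All values share the library and total of a cell.

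**Figure D4:**
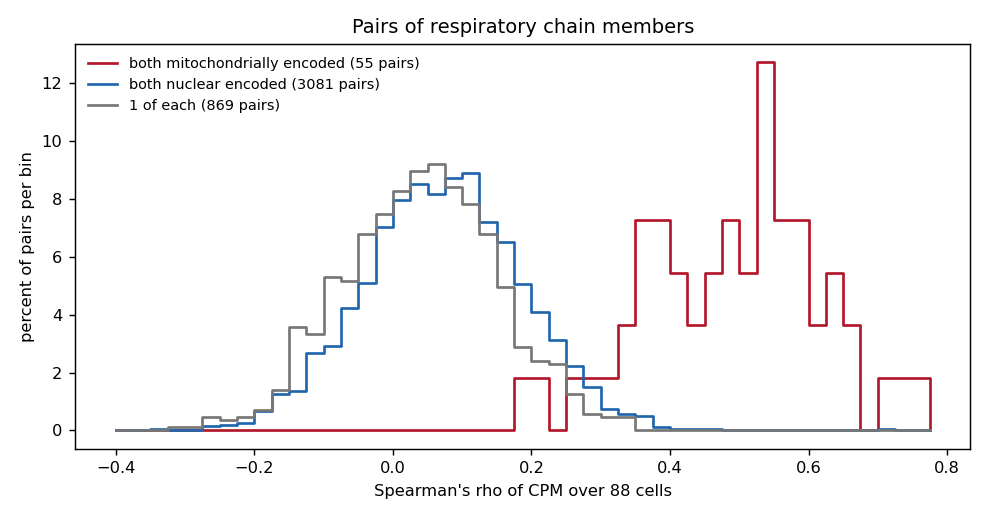
Distribution of Spearman's rho over 88 cells for pairs of mitochondrially encoded genes (55 pairs), of nuclear encoded genes counted in at least 50% of cells (3081 pairs) and of 1 gene from each set (869 pairs). The first is centred near 0.51, the others near 0.07 and 0.04.

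The number of nuclear encoded genes seen in a cell rose with its number of genes, of which they are themselves a part. No other set of genes was set beside them, so whether this is particular to them was not tested. The median cell had a count for 67 of the 91 in the CD61+ gate, 59 in the CD61- gate and 70 in the VCAM1+ gate. Over 88 cells this number had a rho of 0.85 with genes per cell, and 0.79, 0.79, 0.82 and 0.71 within the plates. The CD61- cell with the fewest genes, 1244, had a count for 8 nuclear and 5 mitochondrially encoded genes at a total of 1571949 counts. With forward scatter area, a light-scatter measure related to cell size, the number had a rho of 0.45, and 0.13, 0.67, -0.00 and 0.69 within the plates, so that it was near 0 in CD61- plate 1. With Spp1, at 0 in 25 of the 88 cells, it had 0.41, and 0.22, 0.60, 0.60 and 0.36 within the plates. With Cxcl12 it had -0.26, and -0.16, -0.59, 0.16 and 0.58 within the plates, which differ in sign.

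The summed levels had a rho near 0 with genes per cell over all cells, but not within every plate. For the mitochondrially encoded sum rho was 0.01 over 88 cells (r 0.05) and 0.02, -0.84, 0.34 and -0.01 within the plates. In CD61- plate 1 r was 0.49, and -0.01 without the 2 cells farthest from the median number of genes, so that value rests on those cells. In CD61+ plate 2 (22 cells) r was -0.82, and -0.75 without the 2 farthest cells. All 11 genes had a negative rho there, from -0.80 to -0.35, and the share over all genes in this plate was not computed. Total counts moved along, with a rho of -0.56 with the sum and 0.72 with genes per cell. The rho was -0.76 in a partial rank correlation holding the total, and -0.87 with genes counted after thinning each cell to 507713 counts. The cell of this plate with the highest sum, 57312 CPM, had 3413 genes and the lowest total of all, 507713 counts.

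For the nuclear encoded sum rho with genes per cell was -0.01 over 88 cells (r -0.07) and -0.37, -0.21, 0.68 and -0.36 within the plates. In a partial rank correlation holding the total, the plates gave -0.04, -0.36, 0.75 and 0.32. Without the 2 farthest cells of each plate, rho was -0.41, -0.005, 0.62 and -0.10. The negative values thus varied with the method. In CD61- plate 1 (24 cells) r was 0.72, and 0.65 without the 2 farthest cells. The plates therefore did not share 1 sign for either sum, and whether they differ was not tested.

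**Figure D5:**
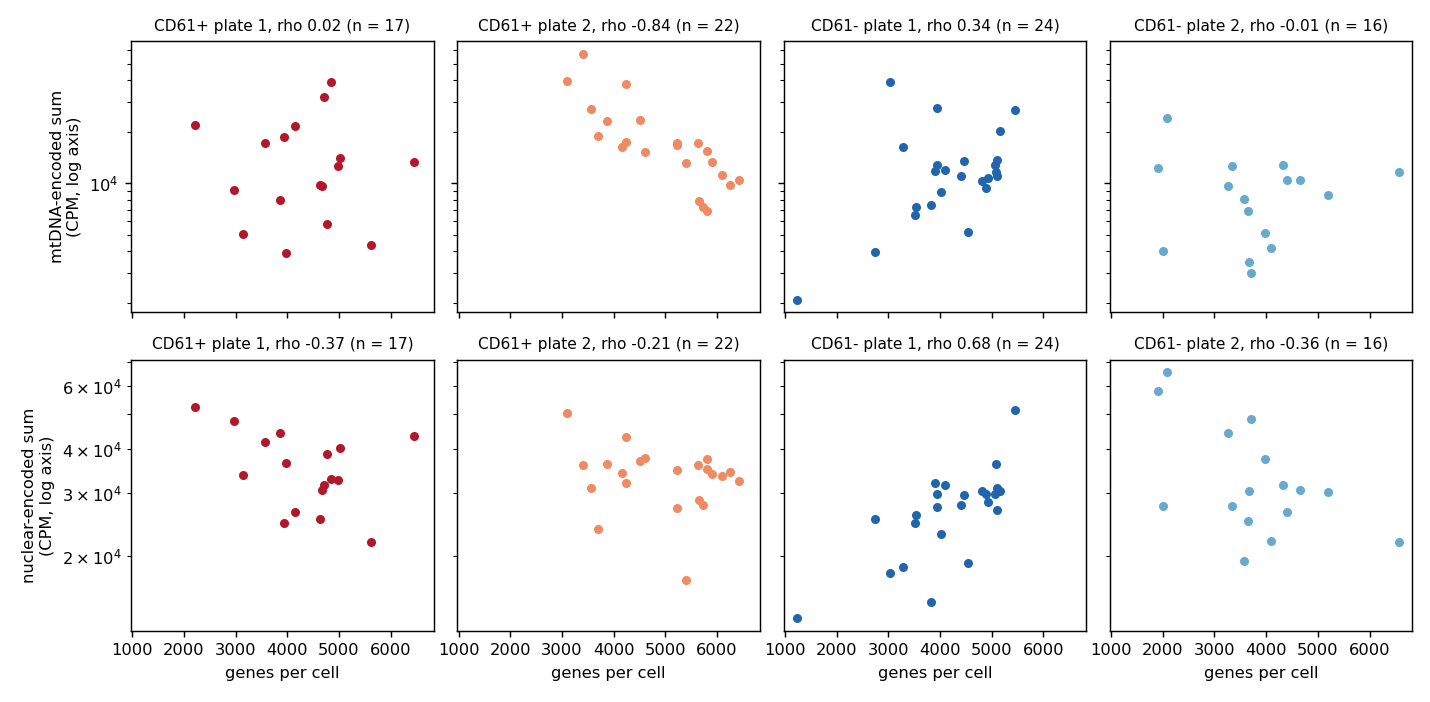
Summed CPM per cell (log axis) against genes per cell in the 4 plates, for mitochondrially encoded (top) and nuclear encoded genes (bottom), 1 point per cell. Points fall towards the right in CD61+ plate 2 on top (rho -0.84) and climb in CD61- plate 1 below (rho 0.68).

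Forward scatter area was larger in CD61+ cells, with a median of 146644 against 111650 in CD61- cells on the deposited intensity scale. The mitochondrially encoded sum had a rho of 0.20 with it (r 0.19), and 0.40, -0.40, 0.15 and 0.41 within the plates. The nuclear encoded sum had 0.23 (r 0.21), and -0.07, 0.33, 0.02 and -0.25 within the plates. Centred on the plate median, the nuclear value was -0.01.

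Cxcl12 encodes the defining chemokine of CAR cells and Spp1 the bone matrix protein osteopontin. The nuclear encoded sum had a rho of -0.32 with Cxcl12 over 88 cells (r -0.28, and -0.25 without the 2 farthest cells). Within the plates it was -0.32, -0.28, 0.15 and -0.06, and in the 9 VCAM1+ cells, 4 of them at 0 for Cxcl12, it was -0.72. In CD61- plate 1 r was -0.34, and 0.42 without the 2 farthest cells. The sign there thus depended on the measure and on those cells. The mitochondrially encoded sum had a rho of -0.15 (r -0.12), and 0.21, -0.01, -0.06 and 0.22 within the plates. With Spp1 the nuclear encoded sum had 0.12 (r 0.10), and -0.17, 0.12, 0.53 and -0.41 within the plates. The mitochondrially encoded sum had 0.07 (r 0.04), and 0.08, -0.29, 0.34 and 0.26. All these levels share the total of a cell, and with Cxcl12 and Spp1 counts left out of it, an alternative chosen after seeing the data, the nuclear values were -0.40 with Cxcl12 and 0.26 with Spp1.

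Gene by gene, 58 of 79 nuclear encoded genes had a negative rho with Cxcl12 (median -0.07), beside 1567 of 4212 genes counted in at least 50% of the same 88 cells (median 0.05). The lowest were Cox5a at -0.44, Cox4i1 at -0.27 and Ndufa12 at -0.25, and the highest Ndufs1 at 0.19, Ndufaf7 at 0.14 and Sdhc at 0.11. For Cox5a the plates gave -0.56, -0.53, 0.11 and -0.13, the lowest values being those of the CD61+ plates. With Spp1, 64 of 79 had a positive rho (median 0.09), beside 2581 of 4212 (median 0.04). The highest were Ndufb6 at 0.37, Ndufb3 at 0.29 and Atp5mpl at 0.28, and the lowest Atp5l at -0.15, Sdhc at -0.09 and Atp5f1 at -0.09. For Atp5mpl the plates gave 0.20, 0.05, 0.30 and 0.30. Within the plates 50, 57, 30 and 32 of the 79 genes had a negative rho with Cxcl12 (medians -0.08, -0.12, 0.04 and 0.07). In the CD61- plates most were thus positive. With Spp1, 37, 56, 59 and 39 were positive (medians -0.01, 0.12, 0.20 and -0.01). Of the 79 genes, 6 had 1 sign in all 4 plates with Cxcl12 and 11 with Spp1. For these and the other counts within plates, the share over all genes was not computed.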

How the data were processed

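Libraries of 91 single cells were analysed from 1 gene by cell table and 1 table of cell properties. Per the submitters' processing notes, the authors used kallisto 0.43.0, R 3.5.1 and the mm10 genome; which annotation they used was not given in the sources used here. Deposited expression values are expected counts, all whole numbers, that sum to the deposited reads of each cell. In each of the 91 cells the deposited gene number equals the count of genes having 4 counts or more. Forward scatter is a deposited intensity from the sorter. A further 45 columns of cell properties were not used.

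Counts were summed per plate and gate and divided by the total (CPM), and a gene was called higher (lower) where both CD61+ plates lay above (below) both CD61- plates. Genes tested had 10 counts or more in the 4 plates together, from at least 5 cells. Relations over cells are Spearman's rho, and Pearson's r on log2(CPM + 1), with no p. No p-value was computed, since no animal is named and cells are not replicates. Depth ran from 507713 to 6702475 counts per cell, so single-cell values of low genes are imprecise, and doublets were not called. Lengths and positions came from GENCODE annotation of GRCm38, and promoters from RefSeq on GRCm38.p6.

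Members and lists were chosen with earlier results of these data known. The genes named are the mitochondrially encoded ones, the 3 most counted per complex, Cycs, assembly factors counted in at least 25% of cells, isoforms and their counterparts, the 6 widest gaps per direction, the 3 highest and lowest rho with Cxcl12 and Spp1, and up to 4 of each pathway list. One gene that this rule takes in is not reported here. Other scalings (TMM, DESeq2 size factors), the mean CPM of cells, other totals and filters, thinned counts and leaving out plates or cells were tried. The rule on plates was tested on simulated data. Analyses used R 4.3.3 with edgeR 4.0.16 and DESeq2 1.42.0, and Python 3.11.15 with pandas 2.3.3, numpy 2.4.6, matplotlib 3.10.9 and scipy 1.17.1.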

Additional observations from a re-analysis of the deposited data

Results flagged for a closer look

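One of the 9 VCAM1+ cells stood apart in the ratio of its mitochondrially to its nuclear encoded sum, which was 5.59. The next cell had 1.27, and the gap took 0.831 of the whole range, above Dixon's critical value for 9 cells; chance alone flags some groups. This cell had 58252 CPM of mitochondrially encoded and 10424 CPM of nuclear encoded genes, 3594 genes and a total of 1270298 counts. Its mitochondrially encoded sum alone did not pass, with a gap of 0.487 of the range, just under that value.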

How the results depend on the processing

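Leaving out 1 plate at a time moved the counts, since fewer plates must then separate: mitochondrially encoded genes higher in both CD61+ plates numbered 7 to 11 and lower 0 to 1, and nuclear encoded genes higher 39 to 51 and lower 19 to 31. Of all genes tested, 32.5% to 41.8% were then higher and 31.5% to 37.5% lower. Under TMM scaling 24 of 90 nuclear encoded genes were higher and 15 lower, beside 19.2% and 18.6% of all genes tested. With DESeq2 size factors the counts were 26 and 14, beside 19.4% and 18.4%. By the mean CPM of cells they were 27 and 12, beside 21.0% and 15.5%. The log2 difference of the mitochondrially encoded sum ran from 0.27 to 0.77 over all alternatives and that of the nuclear encoded sum from 0.18 to 0.31. The rho of the mitochondrially encoded sum with Cxcl12 turned to 0.077 when cells were centred on the plate median; the cause was not tested. No paired analysis was run. The gates share plate numbers 1 and 2, which no label ties to a common day or animal; between same-numbered plates the log2 differences were 0.13 and 0.91 for the mitochondrially and 0.31 and 0.17 for the nuclear encoded sum. Depth limits the genes with few counts, and no label gives animals.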
